A study of Homo sapiens with 48 samples.

Results

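The rescue deficit of the ATPase mutant DE636AA is the difference between how RNA levels responded to loss of endogenous UPF1 in cells that carried this mutant and in cells that carried wild-type UPF1. It was computed per gene as the response to siRNA in the DE636AA line minus the response in the wild-type (WT) line. The comparison used 12 of the 48 libraries of the series, 3 in each of 4 groups. The groups were DE636AA and WT, each transfected at 40 nM either with an siRNA that targets no gene (siNT) or with one against UPF1 (siUPF1), and RNA was taken after 72 h. All were Flp-In 293 T-REx cells, a line derived from HEK293 human embryonic kidney cells that accepts a transgene at a fixed site, and all stably expressed UPF1 with a CLIP tag beside the endogenous gene. Whether a line is 1 clone or a pool is not given in the sources used here. The 3 libraries of a group are biological replicates according to the design text. RNA was depleted of ribosomal RNA and sequenced in paired ends, and libraries from the CLIP line (the tag with no UPF1) and from the ATPase mutant K498A, 6 each, served for comparison.

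UPF1 is an RNA helicase at the centre of nonsense-mediated mRNA decay (NMD), which degrades transcripts whose translation ends too early and also many normal transcripts, such as those with upstream reading frames or long 3′ untranslated regions. UPF1 is phosphorylated by the kinase SMG1, and factors such as SMG5 and SMG6 then recruit or perform cleavage and decay. Several transcripts that encode NMD factors are themselves NMD targets, so that they rise when the pathway is impaired. In UPF1 the DE636AA change replaces the acidic pair of the ATPase's Walker B motif with alanines, which blocks ATP hydrolysis, and K498A changes the Walker A lysine that is needed to bind ATP. The stretch of the reference UPF1 coding sequence around the changed pair is shown because it defines the mutant. It covers codons 633 to 640 of the 1118 codons of transcript ENST00000262803.9 (GENCODE, GRCh38), written 5′ to 3′, with capitals on codons 636 (GAC) and 637 (GAA).
UPF1 codons 633 to 640: attttaatcGACGAAagcacccag

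The 12 libraries held 21.3 to 38.5 M expected counts (median 32.3 M), and 19129 of 57820 genes entered the test. Mitochondrial transcripts took 1.89 to 2.74% of counts. Among the 12, the third WT siUPF1 library was the shallowest and stood furthest from its group, with an SD of its log2 deviations over genes of 0.35 against 0.122 to 0.246 in the other 11. Its deviations followed gene GC content (Spearman correlation across genes 0.597), as did those of the third DE636AA siUPF1 library (0.638), while the first libraries of both groups deviated the other way (-0.564 in WT and -0.499 in DE636AA). Markers of HEK293 cells summed to 1180 to 1520 CPM per library (counts scaled to a library total of 1 M), with vimentin (VIM) at 430 to 611 CPM but PAX8 at 0.151 CPM or less. Markers of other cell types summed to 10.2 to 13.6 CPM with siNT and 15 to 23.7 CPM with siUPF1. The collagen gene COL3A1 (2.83 to 4.69 CPM with siNT and 6.63 to 13.4 CPM with siUPF1), CD68 (3.78 to 4.98 and 3.04 to 8.41 CPM) and COL1A1 (1.3 to 4.67 and 2.1 to 3.56 CPM) were the highest of these, followed by VWF at 1.6 CPM or less. Insulin (INS) was at 0 in all 12 libraries, and PTPRC, ALB and HBB were at 0.182 CPM or less. In the deficit none of the 6 of these 17 markers that were tested was called by edgeR (DESeq2 1 higher, and edgeR with the block within each line 2 higher). The part of that rise in the results was not tested.

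UPF1 itself (ENSG00000005007.8) was abundant in all 4 groups, because reads of the transgene and of the endogenous gene are counted together. In WT it stood at 5190, 5030 and 5640 CPM with siNT and at 4330, 4350 and 5860 CPM with siUPF1. In DE636AA it stood at 4900, 6240 and 5700 CPM with siNT and at 6340, 7080 and 8240 CPM with siUPF1. The knockdown of the endogenous transcript therefore could not be seen in either line, and was seen only in the CLIP line, where UPF1 fell from 108 ± 4.14 to 24.2 ± 10.9 CPM (SD, n = 3), with 18.2, 36.8 and 17.7 CPM in its 3 siUPF1 libraries. With siUPF1 every DE636AA library lay above every WT library, and the level was higher by 0.57 on the log2 scale (SE 0.16, adjusted p = 0.00943, edgeR's quasi-likelihood test with Benjamini-Hochberg adjustment, used for every adjusted p given for a gene here unless another tool is named). The difference between the responses, 0.49 (SE 0.23), did not pass the threshold of 0.05 (adjusted p = 0.27). The part of this difference in transgene RNA in the results that follow was not tested.

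At an adjusted p under 0.05, 860 genes differed between the lines in their response, 4.5% of those tested. Of these, 340 were higher (1.78%) and 520 were lower (2.72%). A gene called higher was raised more, or lowered less, by siUPF1 in DE636AA than in WT. Among them, 67 of the genes called higher and 32 of those called lower differed by at least 2-fold. Over all genes tested the median deficit was -0.02 (log2, quartiles -0.23 and 0.19). The typical 95% interval of a gene's deficit reached 0.43 to either side, so that small differences could not be resolved. With the replicate number as a block within each line, 658 genes were called higher and 896 lower, and in a fit to the 12 libraries alone 172 and 288. The counts depended on single libraries. Without the second WT siNT library they were 186 and 323, without the third DE636AA siNT library 217 genes were higher, and without the first or second DE636AA siUPF1 library 327 or 337 were lower.

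The arms of the comparison show where the 860 genes came from. Of the 340 called higher, 162 (47.6%) rose in DE636AA and were not called in WT, and 87 (25.6%) fell in WT and were not called in DE636AA. Another 26 rose in DE636AA and fell in WT, 42 rose in both lines and 18 fell in both. Of the 520 called lower, 287 (55.2%) fell in DE636AA and were not called in WT, 120 (23.1%) rose in WT and were not called in DE636AA, and 44 fell in DE636AA and rose in WT. The rest fell in both lines (39), rose in both (26) or were called in neither (5 of those higher and 4 of those lower). For comparison, DE636AA responded at 6559 of all genes tested (34.3%) and WT at 5211 (27.2%).

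**Figure D1:**
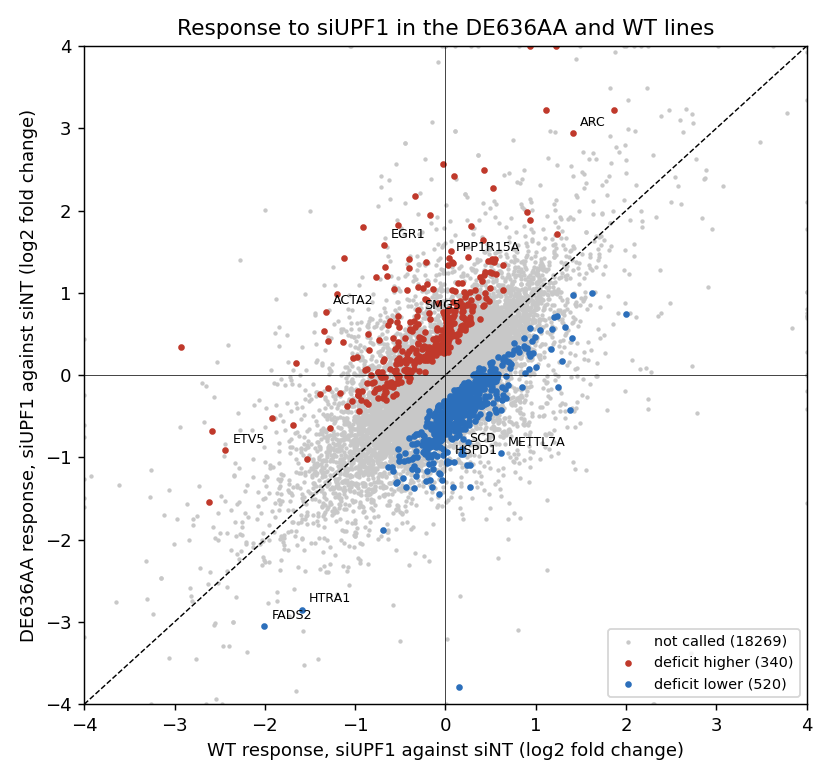
Response to siUPF1 (log2 fold change against siNT) of the 19129 tested genes in the WT line (horizontal axis) and the DE636AA line (vertical axis), with responses beyond 4 drawn at the edge. The dashed line marks equal responses, the 340 genes called higher in the deficit lie above it in red and the 520 called lower lie below it in blue.

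Few genes were called between the lines in the siNT libraries. With siNT only 5 genes (0.0261%) differed between DE636AA and WT, 2 higher (0.0105%) and 3 lower (0.0157%) in DE636AA, with 1226 at an unadjusted p under 0.05. DESeq2 called 10 and 6, and edgeR with no filter on low counts called 72 and 41. The cystine transporter gene SLC7A11 was one of the 5, at 28.1, 25.3 and 24.6 CPM in DE636AA and 45.2, 44.3 and 48.6 CPM in WT, a difference of -0.82 (SE 0.14, adjusted p = 0.00725). CEBPE was another, at 1.78 to 3.3 CPM in DE636AA and at most 0.154 CPM in WT. It was also at 2.3 to 3.85 CPM in K498A and 3.12 to 3.47 CPM in CLIP with siNT, so that WT was the low line. With siUPF1, by contrast, 3491 genes (18.2%) differed, 1550 higher (8.1%) and 1941 lower (10.1%) in DE636AA. In a fit to the 6 siUPF1 libraries alone the counts were 693 and 969. With the block within each line they were 820 and 1153, but that fit compares the lines at replicate 1. Those counts are therefore not a check of the same difference. The genes of the deficit had small differences with siNT, with medians of -0.04 for those called higher and -0.02 for those called lower. With siUPF1 the medians were 0.58 and -0.59. The level difference with siUPF1 enters the deficit itself, so these medians describe it and do not test it.

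**Figure D2:**
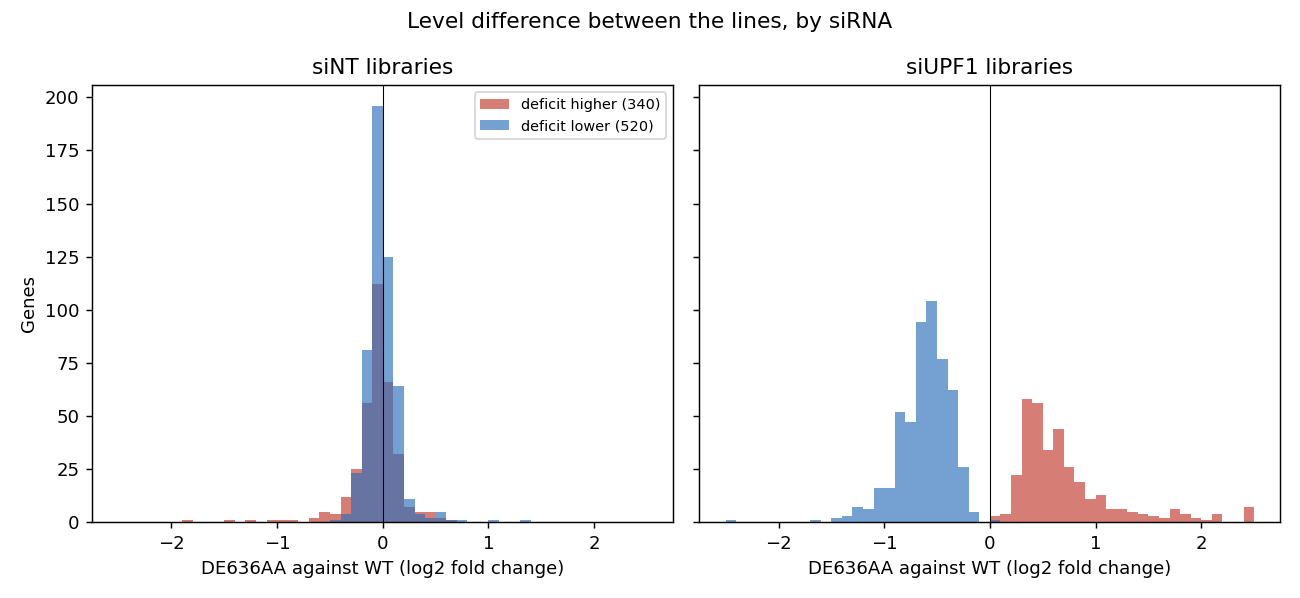
Level difference between DE636AA and WT (log2 fold change) of the genes called in the deficit, in siNT libraries (left) and siUPF1 libraries (right), as counts of genes per bin of 0.1, with values beyond 2.5 in the outermost bin. Both sets centre near 0 with siNT and separate to medians of 0.58 and -0.59 with siUPF1.

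Genes of the NMD machinery were among those higher in DE636AA than in WT after siUPF1. Of 11 NMD factors tested, 4 were called higher and 1 lower, with a median deficit of 0.21. SMG5 (ENSG00000198952.7), an adaptor that binds phosphorylated UPF1, stood at 171, 189 and 191 CPM in WT with siNT and 132, 147 and 164 CPM with siUPF1. In DE636AA it stood at 167, 169 and 176 CPM with siNT and 278, 261 and 303 CPM with siUPF1. All 3 siUPF1 libraries of DE636AA thus lay above the other 9. The deficit was 1.03 (SE 0.14, adjusted p = 8.01e-06), made of a rise of 0.72 in DE636AA and a change of -0.31 in WT (adjusted p = 0.0156).

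UPF2, which bridges UPF1 to the exon junction complex, differed by 0.63 (SE 0.14, adjusted p = 0.00532). It stood at 103, 106 and 78 CPM in WT and 139, 131 and 116 CPM in DE636AA with siUPF1, and the groups did not overlap. The kinase gene SMG1 differed by 0.55 (SE 0.11, adjusted p = 0.0017). SMG1 has near-identical copies in the genome, and how the deposited counts divide their reads is not known. In WT the responses of UPF2 and SMG1 were both 0.01, and neither was called. SMG5, UPF2 and SMG1 also rose in the CLIP line, by 0.96, 0.73 and 1.52, and in K498A, by 0.68, 0.73 and 0.67. UPF3A, which can stand in for UPF3B at the exon junction complex, was the member called lower, at -0.30 (adjusted p = 0.0111). It rose by 0.30 in WT and by 0.65 in CLIP and was at 0.00 in DE636AA, and its call was lost without the second DE636AA siUPF1 library or the first WT siUPF1 library (adjusted p 0.0599 and 0.0534), with no filter on low counts (0.616) and in a fit to the 12 libraries alone (0.112).

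Among 31 NMD targets tested, 7 were called higher and 1 lower, and the median deficit was 0.36. In their own arms, 17 of the 31 rose in DE636AA, 5 in WT and 25 in CLIP, with medians of 0.42, -0.01 and 0.80. Over all genes tested 16.7% rose in DE636AA, 14% in WT and 25.1% in CLIP, so that the WT count was near its background. GABARAPL1, an autophagy gene whose transcript is a known NMD target, stood at 44.6, 45.9 and 42.9 CPM in WT with siNT and 47.9, 49.2 and 38.1 CPM with siUPF1. In DE636AA it went from 43.8, 49.2 and 45.6 CPM to 81.6, 78.9 and 77.8 CPM. Its deficit was 0.76 (SE 0.15, adjusted p = 0.00144). The gene of the stress transcription factor ATF4, whose mRNA carries upstream reading frames, went from 816, 810 and 928 CPM to 1430, 1400 and 1570 CPM in DE636AA. In WT it went from 840, 869 and 905 CPM to 872, 894 and 1050 CPM, and the deficit was 0.68 (SE 0.12, adjusted p = 0.0002). The growth arrest gene GADD45B had a larger deficit of 1.38 (SE 0.32, adjusted p = 0.00624), with siUPF1 levels of 11.1, 14.3 and 11.5 CPM in WT and 23.1, 42 and 29 CPM in DE636AA. In a fit to the 12 libraries alone its adjusted p was 0.0629. ATF3, STC2 and MAP3K14 were the other members called higher besides SMG5. The MAP3K14 call (0.64, adjusted p = 0.0307) was lost in 7 of the 12 fits that each left out 1 library and in a fit to the 12 libraries alone (0.0711). The splicing factor gene SRSF2 was the member called lower, at -0.35, a call lost in 9 of the 12 fits. SRSF2 stands on this list for its poison exon isoform, which gene-level counts cannot separate from the coding isoform.

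Other lists tied to RNA decay held 1 to 3 calls each, where 1.78% of all genes tested were called higher and 2.72% lower. Of 18 non-coding hosts of small nucleolar RNAs, 2 were called higher by edgeR and 3 by DESeq2, and none lower by either (3 lower at an unadjusted p under 0.05), with a median of 0.18 (0.29 without the third WT siUPF1 library and 0.12 without the second DE636AA siUPF1 library). EPB41L4A-AS1, an antisense host, went from 47.2, 49.5 and 49.6 CPM to 81.5, 86.8 and 86.3 CPM in DE636AA. In WT it went from 44.6, 47.7 and 47.5 CPM to 44.3, 47.5 and 52.5 CPM, which gave a deficit of 0.76 (SE 0.11, adjusted p = 2.5e-05). Reads of an antisense gene and of its partner cannot be separated here, since the strand setting is not given in the sources used here. SNHG7, the other host called higher by edgeR, lost its call without any single siNT library of either line (adjusted p 0.0631 to 0.0841). It was also lost in a fit to the 12 libraries alone (0.126). Of 29 exon junction and general decay factors, 1 was called, the decapping activator DDX6 at -0.70 (SE 0.13, adjusted p = 0.000383), and with the block within each line 1 was higher and 2 lower. Of 33 splicing factors with poison exons, 3 were called, all lower. Among these HNRNPA2B1 stood apart at -0.74 (SE 0.11, adjusted p = 1.97e-05), with 2160, 2270 and 2160 CPM in WT and 1350, 1200 and 1160 CPM in DE636AA with siUPF1.

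**Figure D3:**
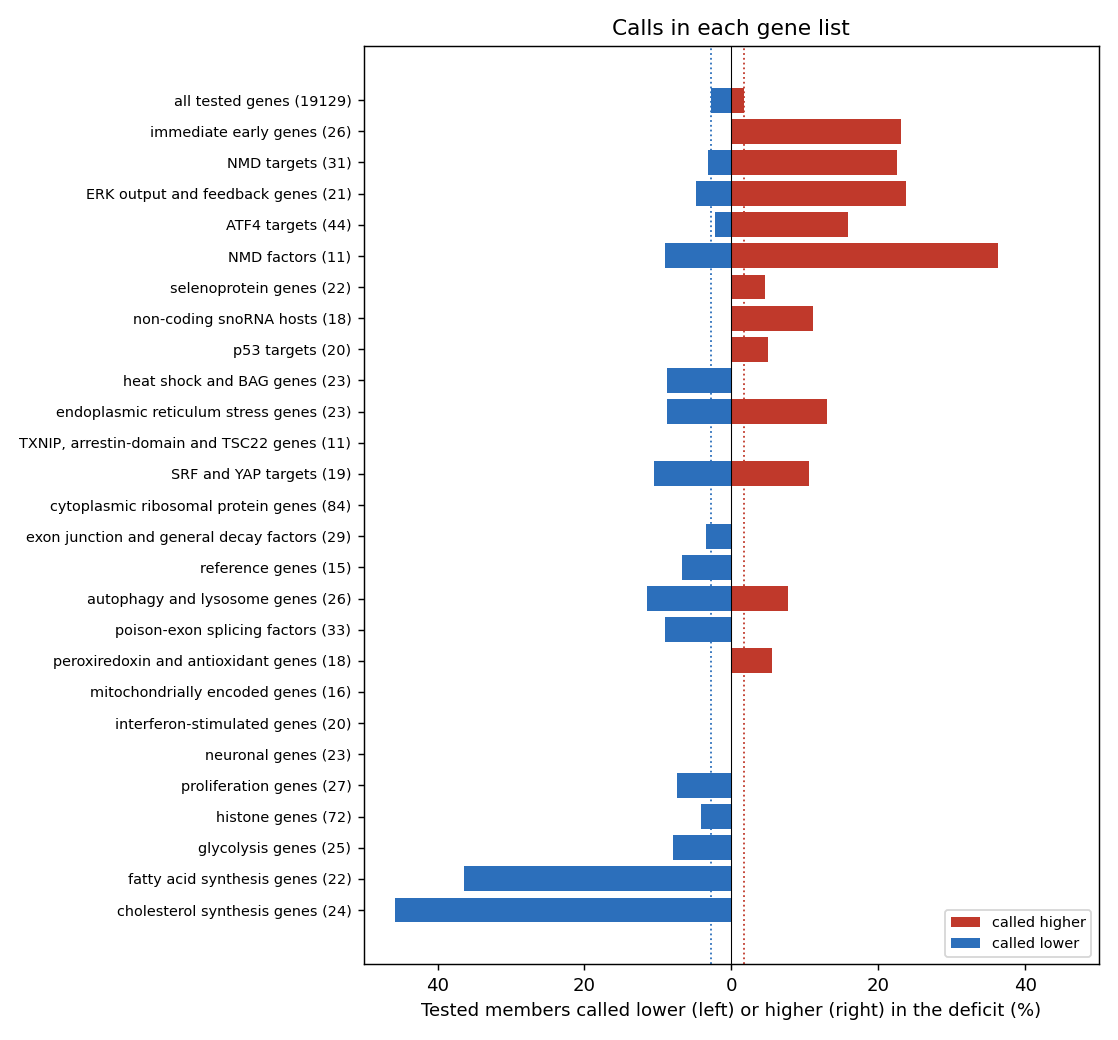
Share of the tested members of each gene list shown (number in brackets) called lower (blue, to the left) or higher (red, to the right) in the deficit, sorted by median deficit, with all tested genes at the top. Dotted lines mark the shares over all tested genes, 2.72% lower and 1.78% higher, and the lipid lists extend furthest to the left.

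Some stress genes downstream of ATF4 had a higher response in DE636AA than in WT. ATF4 drives the integrated stress response, in which amino acid supply and feedback genes are transcribed. Of 44 ATF4 targets tested, 7 were called higher and 1 lower, with a median of 0.22 (0.14 without the first DE636AA siNT library), and with the block within each line 12 and 2 were called. In siUPF1 levels 10 of the 44 were higher and 5 lower in DE636AA than in WT, with a median difference of 0.06, and with siNT the median difference was -0.12. The higher count fell to 3 without the first DE636AA siNT library and to 4 without the third DE636AA siUPF1, the third WT siNT or the first WT siUPF1 library. PPP1R15A, which encodes the phosphatase subunit that ends the stress response, stood at 64.4, 82.9 and 65.3 CPM in WT with siNT and 61.4, 78.8 and 78 CPM with siUPF1. In DE636AA it rose from 54.2, 95.3 and 63.2 CPM to 159, 226 and 184 CPM. The deficit was 1.38 (SE 0.25, adjusted p = 0.000349), and the DE636AA siUPF1 libraries lay above all others. ATF3, a stress-induced transcription factor, rose in DE636AA from 49.2, 61.7 and 48.5 CPM to 91.8, 100 and 84.4 CPM, and in WT stood at 48, 48.8 and 41.1 CPM with siUPF1. Its deficit was 1.10 (SE 0.20, adjusted p = 0.000607).

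SLC3A2, the heavy chain of several amino acid transporters, differed by 0.52 (SE 0.12, adjusted p = 0.00614), and the stress sensor SESN2 by 0.69 (SE 0.18, adjusted p = 0.0158). SESN2 rose in both lines, by 0.64 in WT and by 1.33 in DE636AA, and its call was lost without the first DE636AA siNT library (adjusted p = 0.0585). The secreted glycoprotein gene STC2 differed by 0.70 and the transporter genes SLC1A4 and SLC7A1 by 0.43 and 0.36. These 3 calls were lost in 5, 10 and 9 of the 12 fits that each left out 1 library. The serine synthesis gene PSPH, at -0.52, was called lower and was lost in 6 of the 12.

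Genes of the endoplasmic reticulum stress response were called in both directions. Of 23 tested, 3 were called higher and 2 lower (5 and 4 with the block within each line, 2 and 0 in a fit to the 12 libraries alone). Over all genes tested 1.78% were called higher and 2.72% lower. The median was 0.08, and between 0.03 and 0.14 when each library was left out in turn. HERPUD1, a component of the degradation machinery of the endoplasmic reticulum, stood at 38.1, 34.1 and 31.7 CPM in WT and 54.7, 58.3 and 55.9 CPM in DE636AA with siUPF1. Its deficit was 0.85 (SE 0.15, adjusted p = 0.00029), while the CLIP response was 0.06 (adjusted p = 0.7). XBP1, a transcription factor of the unfolded protein response, rose by 0.36 in WT and by 0.94 in DE636AA, a deficit of 0.59 (SE 0.12, adjusted p = 0.00161). The chaperone gene CANX went the other way at -0.37 (SE 0.09, adjusted p = 0.00977), with 1390, 1430 and 1340 CPM in WT and 995, 971 and 942 CPM in DE636AA with siUPF1. That call was lost with no filter on low counts (adjusted p = 0.3) and in a fit to the 12 libraries alone. HSPA5, the other member called higher, lost its call in 5 of the 12 fits that left out 1 library. PDIA6, the other called lower, lost its call for example without the second WT siUPF1 library (adjusted p = 0.0998). Both were also lost in a fit to the 12 libraries alone (0.0992 and 0.0996).

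**Figure D4:**
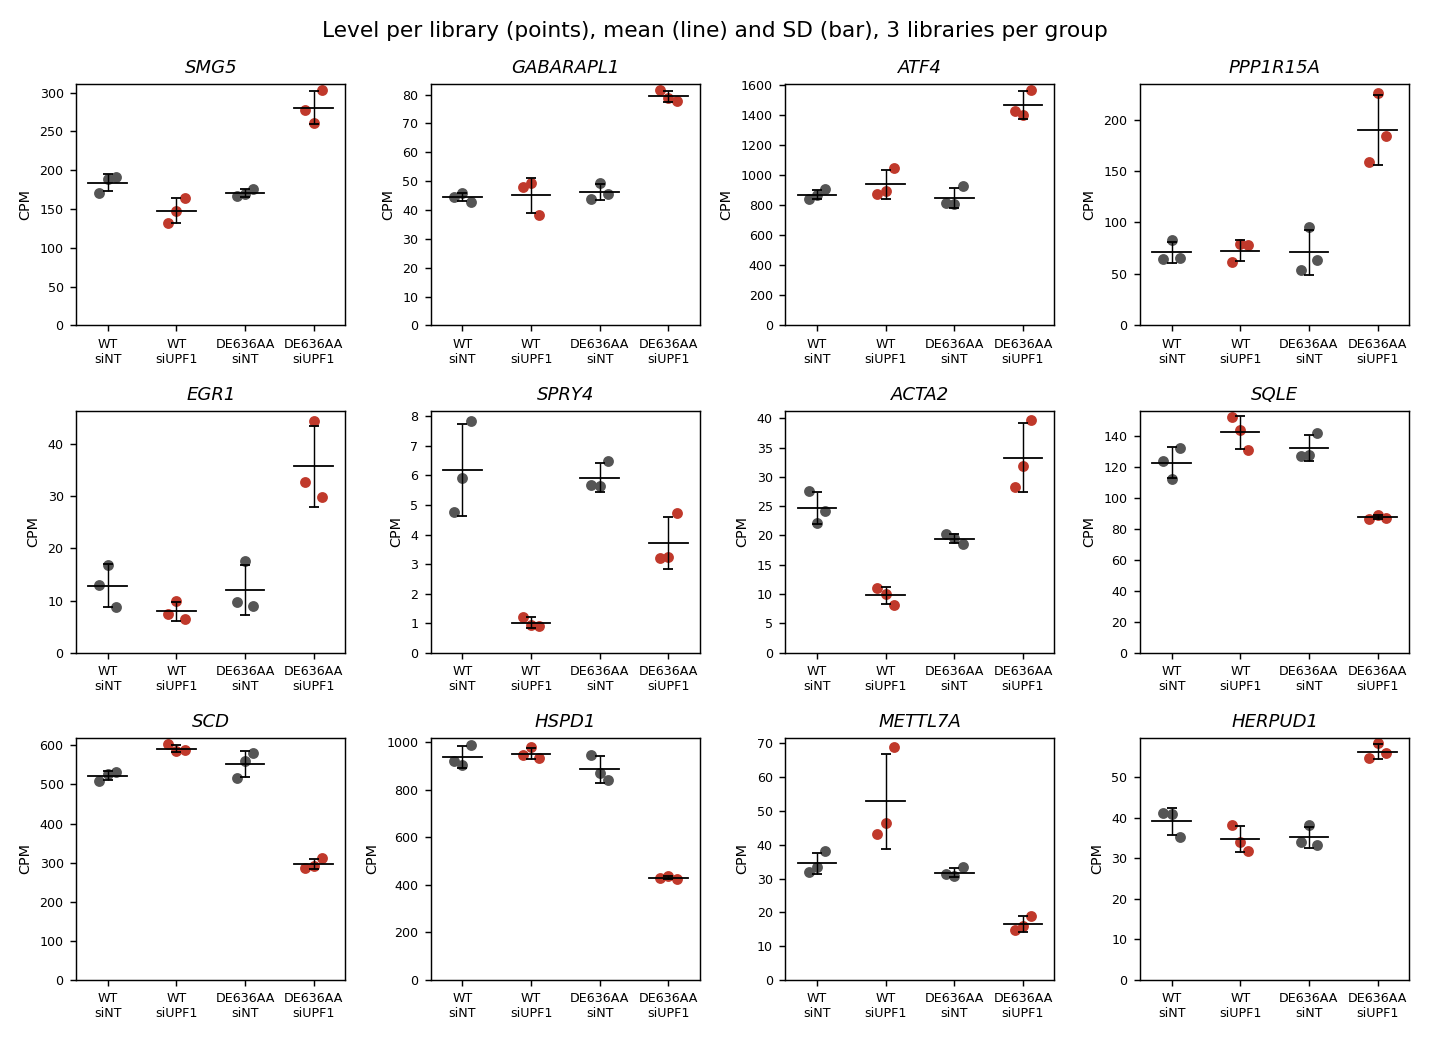
CPM in each library (points, replicates 1 to 3 from left to right) with the group mean (line) and SD (bar), n = 3, for 12 genes named in the text, with each vertical axis starting at 0. The DE636AA siUPF1 libraries lie above the WT siUPF1 libraries in SMG5, GABARAPL1, ATF4, PPP1R15A, EGR1, SPRY4, ACTA2 and HERPUD1 and below them in SQLE, SCD, HSPD1 and METTL7A.

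Growth signalling and early response genes held several of the largest differences. EGR1 (ENSG00000120738.7), an immediate early transcription factor induced through the ERK pathway, had the highest deficit by the naming rule. It stood at 12.9, 16.9 and 8.69 CPM in WT with siNT and 7.43, 10 and 6.44 CPM with siUPF1. In DE636AA it rose from 9.68, 17.5 and 8.89 CPM to 32.8, 44.5 and 29.9 CPM. The groups with siUPF1 did not overlap, and the deficit was 2.26 (SE 0.37, adjusted p = 0.000139). In the CLIP line EGR1 was at 0.06 (adjusted p = 0.88), and in K498A it rose by 0.93 (adjusted p = 0.0051).

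Of 26 immediate early genes tested, 6 were called higher and none lower by edgeR or DESeq2 (0 lower also at an unadjusted p under 0.05), with a median of 0.44. KLF6, a zinc-finger transcription factor, differed by 0.76 (SE 0.13, adjusted p = 0.00028), with 53.6, 52.6 and 54.2 CPM in WT and 85.7, 104 and 84.8 CPM in DE636AA with siUPF1. The synaptic gene ARC rose in both lines, by 1.41 in WT and by 2.94 in DE636AA. Its deficit of 1.53 (SE 0.40, adjusted p = 0.0192) was lost without the first DE636AA siNT library, the third DE636AA siUPF1 library, the second WT siNT library or the first or second WT siUPF1 library (adjusted p 0.056 to 0.0744). FOS (1.46) and GEM (1.18) stood at 1.11 to 2.43 CPM and 1.09 to 1.54 CPM in WT with siUPF1, and their calls were lost in 5 and 6 of the 12 such fits. The count of 6 fell to 3 without the second WT siNT or the first WT siUPF1 library and in a fit to the 12 libraries alone, and it was 12 with the block within each line.

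Of 21 genes of ERK output and feedback, 5 were called higher and 1 lower, with a median of 0.32, and 8 and 1 were called with the block within each line. In the single arms the list mostly fell in both lines. In DE636AA 6 of the 21 rose and 11 fell, and in WT 1 rose and 11 fell, with a median response of -0.30 in each line. Over all genes tested 17.6% fell in DE636AA and 13.3% in WT. The median was 0.15 without the third DE636AA siUPF1 library, 0.48 without the third WT siUPF1 library and 0.48 without the third DE636AA siNT library. SPRY4, a feedback inhibitor of receptor signalling, fell in both lines and less in DE636AA. It went from 4.77, 5.92 and 7.84 CPM to 1.22, 0.925 and 0.887 CPM in WT and from 5.67, 5.63 and 6.48 CPM to 3.19, 3.23 and 4.73 CPM in DE636AA. The deficit was 1.91 (SE 0.29, adjusted p = 2.77e-05). The transcription factor gene ETV5 behaved alike, with responses of -2.44 in WT and -0.91 in DE636AA and a deficit of 1.53 (SE 0.31, adjusted p = 0.00163). The phosphatase gene DUSP5 rose by 0.38 in DE636AA and fell by 0.30 in WT, a deficit of 0.68 (SE 0.16, adjusted p = 0.00618). The cyclin gene CCND1 was the member called lower, at -0.45 (adjusted p = 0.00207, and 0.142 with no filter on low counts).

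ACTA2, smooth muscle actin, moved in opposite directions in the 2 lines. It went from 27.6, 22.2 and 24.2 CPM to 11.1, 10 and 8.17 CPM in WT and from 20.2, 19.6 and 18.6 CPM to 28.3, 31.9 and 39.7 CPM in DE636AA. The deficit was 2.10 (SE 0.22, adjusted p = 1.41e-07). Of the 19 tested targets of the SRF and YAP factors that list holds, 2 were called higher and 2 lower, so that ACTA2 did not stand for its list, whose median was 0.03 and ranged from -0.05 to 0.13 when each library was left out in turn. The matricellular gene CYR61 was the other one called higher, at 0.91 (SE 0.16, adjusted p = 0.000233). Cytoplasmic actin ACTG1 was lower at -0.77 (SE 0.14, adjusted p = 0.000396), with 2370, 2430 and 2850 CPM in WT and 1360, 1370 and 1660 CPM in DE636AA with siUPF1, and the adhesion gene VCL was lower at -0.53.

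Lipid synthesis genes formed the group with the highest share called lower. Of 24 cholesterol synthesis genes tested, 11 were called lower and none higher by edgeR (DESeq2 13 and 0, with 0 higher also at an unadjusted p under 0.05). The median deficit was -0.51, and 13 of the 24 fell in DE636AA (17.6% of all genes tested fell) while 9 rose in WT (14% of all genes rose). SQLE, the squalene epoxidase, stood at 124, 112 and 132 CPM in WT with siNT and 152, 144 and 131 CPM with siUPF1. In DE636AA it fell from 127, 128 and 142 CPM to 86.1, 88.7 and 87.3 CPM, and the siUPF1 groups did not overlap. The deficit was -0.81 (SE 0.12, adjusted p = 1.94e-05). DHCR7, a late enzyme of the pathway, differed by -0.82 (SE 0.11, adjusted p = 8.01e-06), and here the WT line moved. DHCR7 rose in WT from 39.6, 39.9 and 40.6 CPM to 67.6, 71.9 and 54.8 CPM and stood in DE636AA at 40.9, 40.2 and 42.6 CPM and then 40.7, 36.3 and 36.8 CPM. IDI1, an early isoprenoid enzyme, was at -0.73 (SE 0.17, adjusted p = 0.00562). FDFT1, EBP and FDPS were at -0.70, -0.60 and -0.46, of which FDPS was not called with no filter on low counts (adjusted p = 0.123). LSS (-0.72), MSMO1 (-0.69) and TM7SF2 (-0.60), also called lower, lost their calls in 7, 6 and 10 of the 12 fits that left out 1 library.

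Of 22 genes of fatty acid synthesis and desaturation, 8 were called lower and none higher by edgeR (DESeq2 9 and 0, with 1 higher at an unadjusted p under 0.05), with a median of -0.29. SCD (ENSG00000099194.5), the desaturase that makes monounsaturated fatty acids, stood at 510, 526 and 531 CPM in WT with siNT and 603, 585 and 587 CPM with siUPF1. In DE636AA it fell from 517, 559 and 581 CPM to 287, 292 and 312 CPM. The deficit was -1.07 (SE 0.12, adjusted p = 1.41e-07). FADS2, the desaturase for polyunsaturated fatty acids, fell steeply in both lines, to 12.5, 12.1 and 16.5 CPM in WT and 7.56, 6.45 and 8.53 CPM in DE636AA from 52.2 to 71 CPM with siNT. Its deficit was -1.04 (SE 0.19, adjusted p = 0.000599). ACSL4, which activates arachidonic acid, rose by 1.00 in WT and was at 0.10 in DE636AA (adjusted p = 0.67), a deficit of -0.91 (SE 0.21, adjusted p = 0.00656). ACLY, which makes cytosolic acetyl-CoA, was at -0.69, ACSL1 at -0.64, SCD5 at -0.62 and the carboxylase gene ACACA at -0.49 (adjusted p = 0.00016, and 0.0634 with no filter on low counts). SREBF1, the transcription factor of this pathway, rose in both lines, by 1.33 in WT and 0.58 in DE636AA, and its call (-0.74, adjusted p = 0.0306) was lost in 8 of the 12 fits that left out 1 library.

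The remaining genes of largest difference belonged to varied functions. Besides those above, the 15 highest by the naming rule held TNFAIP3 (1.62), an inhibitor of NF-kappaB signalling, EPPK1 (1.31), a cytoskeletal linker, DNAH6 (1.27), a dynein heavy chain, and the cytokine receptor gene IL6R (1.20). FILIP1L (1.19), ZNF468 (1.04) and the channel gene PANX2 (1.00) completed them. In siUPF1 libraries all 15 lay above every WT library, against 14.6% of all genes tested. The siUPF1 levels enter the deficit by which these genes were picked, so this separation describes them and does not test them. TNFAIP3 stood at 5.68, 6.6 and 5 CPM in WT and at 17.3, 25.2 and 15.1 CPM in DE636AA with siUPF1 (SE 0.30, adjusted p = 0.000587). IL6R was a case where the WT line moved, from 5.05, 4.69 and 5.16 CPM to 2.07, 2.59 and 2.99 CPM. The FILIP1L call was lost in a fit to the 12 libraries alone (adjusted p = 0.0822).

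Among the 15 lowest, METTL7A, a lipid droplet protein of the methyltransferase family, had the largest difference and opposite responses. It rose from 32, 33.4 and 38 CPM to 43.3, 46.3 and 68.9 CPM in WT and fell from 31.2, 30.7 and 33.3 CPM to 14.6, 16 and 19 CPM in DE636AA. The deficit was -1.56 (SE 0.18, adjusted p = 3.77e-07). HSPD1 (ENSG00000144381.12), the mitochondrial chaperonin, stood at 944, 978 and 931 CPM in WT and 427, 437 and 426 CPM in DE636AA with siUPF1, with siNT levels of 839 to 989 CPM in both lines. Its deficit was -1.06 (SE 0.11, adjusted p = 1.41e-07). MAD2L1, a spindle checkpoint gene, stood at 102, 98 and 95 CPM in WT and 40.6, 44.4 and 36.9 CPM in DE636AA, a deficit of -1.23 (SE 0.21, adjusted p = 0.000249).

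The serine protease gene HTRA1 (-1.26) fell in both lines and further in DE636AA. The others of the 15 were TMEM14C (-1.21), a mitochondrial heme synthesis gene, DBI (-1.15), which encodes the acyl-CoA binding protein, ALDH1A3 (-1.14), a retinoic acid synthesis enzyme, the matrix gene MATN2 (-1.12) and the glutathione transferase gene GSTA4 (-1.10). SDHD (-1.10), a subunit of succinate dehydrogenase, SNRPC (-1.06), a protein of the U1 particle, PCYT2 (-1.04), a phosphatidylethanolamine synthesis enzyme, and FAM64A (-1.02) followed. All 15 lay below every WT library with siUPF1, against 15.4% of all genes tested. This too describes genes picked by the deficit and is no test of it. With siNT, none of the 30 named genes was called, and 3 of each 15 did not overlap between the lines, where over all genes tested 6.26% lay wholly above and 7.82% wholly below WT. HSPD1, DBI, SNRPC, ACTG1 and HNRNPA2B1 have processed pseudogenes, which makes the division of their reads uncertain.

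Many other lists held few calls or none. Over all genes tested 1.78% were called higher and 2.72% lower, and the few calls are not read as results about these lists. No member was called among 84 cytoplasmic ribosomal protein genes, 20 interferon-stimulated genes, 16 mitochondrially encoded genes, 23 neuronal genes and 11 genes of the TXNIP, arrestin-domain and TSC22 group by edgeR. At an unadjusted p under 0.05 these lists held 4, 3, 1, 2 and 4 genes in that order, and DESeq2 called 1, in the TXNIP group. With the block within each line 3 were higher in the TXNIP group, and 1 each was lower among interferon-stimulated and neuronal genes. Of 27 proliferation genes 2 were lower, TYMS, the thymidylate synthase (-0.63, adjusted p = 0.000309), and BIRC5 (-0.36, adjusted p = 0.0433). The BIRC5 call was lost in 8 of the 12 fits that left out 1 library, in a fit to the 12 libraries alone (0.15) and with no filter on low counts (0.384). With the block within each line 4 proliferation genes were lower. Of 72 histone genes 3 were lower, among them the variant histone gene H2AFZ (-0.69, adjusted p = 5.52e-05), and 6 with the block within each line. Of 26 autophagy and lysosome genes 2 were higher and 3 lower, with the lysosomal protease gene CTSL at -0.69 (SE 0.10, adjusted p = 1.29e-05). With the block within each line 5 were higher and 4 lower, and in a fit to the 12 libraries alone 1 and 1. Glycolysis genes, with a median of -0.23 over 25 tested (-0.13 without the third WT siUPF1 library), had 2 called lower, and 7 lower and 1 higher with the block within each line. Both calls, BNIP3 and HK1, were lost without the third DE636AA siNT library, the first or second DE636AA siUPF1 library, the first WT siNT library or the third WT siUPF1 library, and in a fit to the 12 libraries alone. BNIP3 is on this list but does not encode a glycolytic enzyme.

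Against the same shares over all genes tested, further lists had 1 or 2 calls each. They were heat shock genes with 2 lower (HSPD1 and HSP90AA1), p53 targets with 1 higher (TNFRSF10B), selenoprotein genes with 1 higher (TXNRD1), antioxidant genes with 1 higher (HMOX1), and reference genes with 1 lower (YWHAZ). Of these calls, TXNRD1 was lost in 9, YWHAZ in 8, TNFRSF10B in 2, HMOX1 in 2 and HSP90AA1 in 1 of the 12 fits that left out 1 library, and TXNRD1 and HSP90AA1 also in a fit to the 12 libraries alone. HMOX1 was lost without the second siNT library of either line, TNFRSF10B without the third DE636AA siNT or the first WT siNT library, and HSP90AA1 without the first DE636AA siNT library. With the block within each line 2 selenoprotein genes were higher, and 2 reference genes, 2 antioxidant genes and 1 p53 target were lower.

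Libraries outside the comparison show how the same genes behaved with no rescue. In the CLIP line 9066 genes responded (47.4%), with 4798 raised (25.1%) and 4268 lowered (22.3%) by siUPF1, and in a fit to the 6 CLIP libraries alone 2134 and 1607. The second CLIP siUPF1 library stood furthest from its group of all 48, with an SD of its log2 deviations of 0.646, a Spearman correlation of these with GC content of 0.764 and a mitochondrial share of 0.631%. Without it 4156 genes were raised and 3716 lowered. Of the 340 genes higher in the deficit, 172 (50.6%) rose in CLIP, 75 (22.1%) fell and 93 were not called. Of the 520 genes lower in the deficit, 122 (23.5%) fell in CLIP, a share near that over all genes, 185 (35.6%) rose and 213 were not called. Without that library 166 of the 340 rose and 75 fell, and 110 of the 520 fell and 185 rose. PPP1R15A, SMG5, ATF3, ARC and GADD45B were among those that rose in CLIP, by 1.56, 0.96, 1.00, 2.79 and 0.86. ACTA2, ETV5 and DNAH6, all higher in the deficit, fell in CLIP by 1.06, 1.30 and 0.70. METTL7A, HTRA1, FADS2 and MATN2 fell in CLIP by 1.12, 2.37, 3.14 and 1.24. SCD (-0.07), MAD2L1 (-0.21) and ALDH1A3 (-0.20), which fell in DE636AA, were not called in CLIP. PCYT2, lower in the deficit, rose by 0.42 in CLIP, a call lost without the second CLIP siUPF1 library (0.18, adjusted p = 0.205). The other CLIP genes named in this paragraph kept their side of the threshold without it.

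The difference between the DE636AA and CLIP responses was itself tested, and 1208 genes were higher (6.32%) and 2222 lower (11.6%) in DE636AA. Without the third DE636AA siNT library these were 723 and 1621, without the first or the third CLIP siUPF1 library 2173 or 1880 genes were higher, and with the block within each line 2097 were higher. In a fit to its own 12 libraries alone 126 genes were higher and 370 lower. Without the second CLIP siUPF1 library the counts were 935 and 1787. SCD was lower in DE636AA than in CLIP by this test, as were 10 of the 15 lowest genes, and 6 of the 15 highest were higher (11 and 7 without the second CLIP siUPF1 library). Of the 31 NMD targets 14 (45.2%) were lower and 0 higher, and 13 lower (41.9%) without that library. Of 11 NMD factors 6 were lower, and of 18 non-coding hosts of small nucleolar RNAs 13, with 0 higher in either list. Exon junction and general decay factors had 2 higher and 3 lower of 29. Both tests use the DE636AA libraries, so these counts are descriptions.

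**Figure D5:**
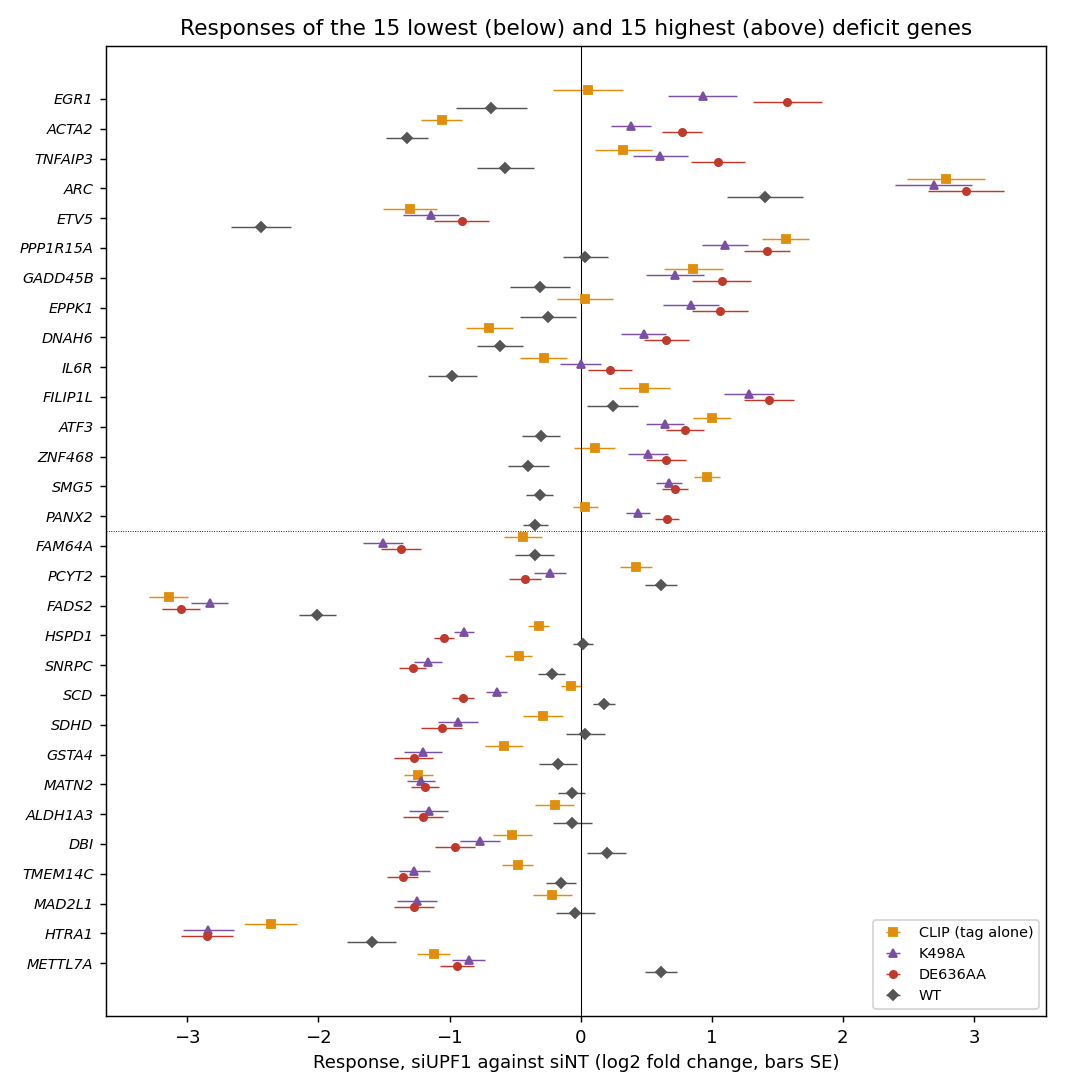
Response to siUPF1 (log2 fold change against siNT, bars SE, n = 3 libraries per group) of the 15 genes with the lowest and the 15 with the highest deficit in the CLIP, K498A, DE636AA and WT lines. The K498A response is nearer to that of DE636AA than to that of WT in all 30, whereas CLIP varies, for example at 0.06 for EGR1 and at 1.56 for PPP1R15A.

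K498A, which has a change in the same ATPase site, shared no library with the deficit. In K498A, siUPF1 raised 3094 genes (16.2%) and lowered 3153 (16.5%). Of the 340 genes higher in the deficit, 211 (62.1%) rose in K498A and 28 fell. Of the 520 genes lower in the deficit, 328 (63.1%) fell and 34 rose. Among the named genes, 12 of the 15 highest rose and 14 of the 15 lowest fell. No gene was called when the DE636AA response was set against the K498A response (0% of genes, smallest adjusted p = 1.00), with 262 genes at an unadjusted p under 0.05. DESeq2 also called 0, and edgeR with no filter on low counts called 24 higher and 18 lower. The 95% interval of that difference lay within 2-fold for 14245 of the 19129 genes (74.5%), which leaves larger differences possible at the rest. For SMG5 the interval ran from -0.24 to 0.33, for HSPD1 from -0.37 to 0.07 and for EGR1 from -0.09 to 1.39. ACTA2 rose by 0.77 in DE636AA and was at 0.38 in K498A (adjusted p = 0.051), with an interval of the difference from -0.05 to 0.83.

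Properties of the transcripts differed between the sets. Among protein-coding genes, the median 3′ untranslated region was 1560 bases in genes called higher, 942 bases in genes called lower and 970 bases over all tested. The median transcript was 3681, 2720 and 3090 bases long in the same order. Median GC content was 48.1, 49.3 and 49.8%. Genes called lower were also more abundant, with a median of 49.9 CPM against 21.4 CPM for those called higher and 13.9 CPM over all tested. Abundance changes how small a difference can be called, and its part in these lengths was not tested.

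Zinc-finger genes stood out in 1 direction. This group was formed from gene symbols after the values were seen. Of 549 tested, 69 were called higher and none lower by edgeR (2 lower at an unadjusted p under 0.05), so that they made up 20.3% of the 340 genes higher against 2.87% of all genes tested. Without them the median 3′ untranslated region of the genes called higher was 1500 bases. In the single arms 223 of the 549 fell in WT and 25 rose, while 88 fell and 70 rose in DE636AA. Over all genes tested 13.3% fell and 14% rose in WT, and 17.6% fell and 16.7% rose in DE636AA, so that the share of zinc-finger genes that fell was 40.6% in WT and, near the background, 16% in DE636AA. In the CLIP line 234 fell (42.6%) and 86 rose (15.7%), against 22.3% and 25.1% of all genes. Without the second CLIP siUPF1 library 208 fell (37.9%) and 60 rose (10.9%), against 19.1% and 21.4% of all genes. Zinc-finger counts were not computed without the third WT siUPF1 library, whose deviations followed GC content. The median responses of zinc-finger genes were -0.28 in WT, -0.26 in CLIP, -0.04 in DE636AA and -0.07 in K498A. ZNF468 was the one among the 15 highest, at 9.71, 10 and 5.09 CPM in WT and 17.7, 14.6 and 14.6 CPM in DE636AA with siUPF1. Some genes of this kind are close paralogs, and how the deposited counts divide reads shared among them is not known.

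Promoter windows of the early response and stress genes were searched for the letters that their known regulators bind. Windows of 250 bases before to 50 bases after the start were available for 35116 entries from RefSeq (GRCh38.p14), and motifs were searched on both strands. The serum response element, a CArG box in which CC and GG enclose a run of A or T bases, was in 1.29% of all windows and in 2 of 20 of the immediate early list, EGR1 and EGR2. The ATF4-type motif TGATGNAA was in 3.62% of all windows, in 10 of 29 ATF4 targets with a window and in 4 of the 7 called members with a window. The cyclic AMP response element TGACGTCA was in 1.85% of all windows, with PPP1R15A and GABARAPL1 among them. The sterol element TCACNCCAC was in 1.13% of all windows and in none of the 7 called cholesterol genes with a window. These are matches of letters in these windows only. A listed gene counted once if any of its windows matched, while the shares over all windows count each window. Genes with several windows can thus match more often, so these shares are not directly comparable. The matches in called members of the immediate early, ATF4 target, NMD target and cholesterol lists are printed with capitals on the motif, all read on the strand of the gene. They lie at chr5:138465366-138465391 and chr5:138465388-138465413 for EGR1, chr1:212565208-212565231 for ATF3, chr2:64989384-64989407 and, for the sterol letters, chr2:64988420-64988444 for SLC1A4, chr11:62881728-62881748 for SLC3A2, chr13:29595666-29595689 for SLC7A1, chr19:48872355-48872378 for PPP1R15A and chr12:10212839-10212862 for GABARAPL1.
EGR1, CArG box nearest upstream end: cggtcctgCCATATTAGGgcttcctg
EGR1, CArG box nearer the start: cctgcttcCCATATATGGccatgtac
ATF3, TGATGNAA: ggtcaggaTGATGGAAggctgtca
SLC1A4, TGATGNAA on the opposite strand: gctcccgtTTGCATCAtctccagc
SLC1A4, TCACNCCAC on the opposite strand: tggaagtgGTGGCGTGAgagctctg
SLC3A2, TGATGNAA on the opposite strand: aggactccTTACATCAgctcc
SLC7A1, TGATGNAA: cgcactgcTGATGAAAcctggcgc
PPP1R15A, TGACGTCA: tctcttcgTGACGTCAgcacgccg
GABARAPL1, TGACGTCA: tcgcggggTGACGTCAcagcccga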

How the data were processed

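RNA-seq of 12 libraries (DE636AA and WT, siNT and siUPF1, 3 each) was analysed within a fit to all 48 libraries. The authors' deposited table holds expected counts per gene, not normalised. cutadapt, STAR, RSEM and DESeq2 and the build hg19 are named in the submitters' processing notes; versions, annotation release and strand setting are not given in the sources used here. They were rounded to whole counts, and edgeR 4.0.16 was run under R 4.3.3 (TMM, filterByExpr by the 16 groups, quasi-likelihood fit with 32 residual degrees of freedom, Benjamini-Hochberg adjustment over 19129 genes), which kept 99.95% or more of the counts of each of the 12 libraries. A gene was called at an adjusted p under 0.05, and fold changes are log2. The SE was taken as the fold change over the square root of F. DESeq2 1.42.0 was an alternative. On simulated counts for this comparison over 19129 genes, 90% of genes changed 2-fold and 35% of genes changed 1.5-fold were called, with 10 false calls. The changed genes all had a mean of 5 CPM or more. Each gene was given the spread of the trend over abundance and no spread of its own. Counts were drawn independently, without the GC-linked deviations of whole libraries seen in the data. These figures therefore do not cover genes of lower counts, genes more variable than the trend, or the false calls that such deviations may add.

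Named genes were UPF1, the 15 highest and 15 lowest called deficits at a mean of 5 CPM or more over the 12 libraries (clone-named, pseudogene and antisense-named loci skipped), and in each list up to 4 called members with the largest deficit, or the 2 largest where none was called. Other called members of a list, genes called with siNT and the zinc-finger genes fall outside that rule and were named after their values were seen. Members and lists were chosen with earlier results of these data known. No p is given for a list.

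Labels give the groups the same replicate numbers. Deviations of same-numbered siNT and siUPF1 libraries from their group means correlated across genes (r = 0.663, 0.412 and 0.504 in DE636AA, 0.327, 0.363 and 0.416 in WT). Same-numbered DE636AA and WT libraries also correlated (0.372, 0.153 and 0.291 with siNT, 0.529, 0.159 and 0.639 with siUPF1). What the numbers stand for is not known. The main fit had no replicate term, and gene values and adjusted p come from it unless an alternative is named. Blocks by replicate number, over all lines or within each line, were alternatives. The blocked counts are given where they differ by over 1.5 times. No library was a copy of another. Gene types, lengths and GC content came from a GRCh38 annotation matched by gene ID, for 18396 of the genes tested in all (96.2%). No gene coordinates of hg19 were used here. Some genes and 1 list are not reported here.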

Additional observations from a re-analysis of the deposited data

Results flagged for a closer look

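The responses of the DE636AA and WT lines to siUPF1 differed at 340 genes called higher and 520 called lower by the test of the interaction. Of these, 26 rose in DE636AA and fell in WT, and 44 fell in DE636AA and rose in WT, so that both arms were called in opposite directions. The responses of the DE636AA and CLIP lines differed at 1208 genes called higher and 2222 called lower by the same kind of test.

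Among genes of opposite direction that the report does not describe, chosen after their values were seen, PEBP1, which encodes an inhibitor of Raf kinase, fell by 0.45 in DE636AA and rose by 0.56 in WT. PEA15, a death effector domain protein that binds ERK, rose by 0.45 in DE636AA and fell by 0.45 in WT. In the CLIP line PEBP1 rose by 0.38 and PEA15 by 0.91.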

How the results depend on the processing

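No called gene named here reversed under any alternative run. In a fit to the 12 libraries alone 30 of the 111 genes followed were no longer called, and with no filter on low counts 24 of 113. Fits to the compared groups alone called 172 genes higher and 288 lower in the deficit, 2134 and 1607 in the CLIP response, 126 and 370 in the DE636AA response minus the CLIP response, and 693 and 969 in the siUPF1 level difference. With the replicate block the deficit had 608 higher and 819 lower, and the siNT level difference 11 and 9. With the block within each line the deficit had 658 higher and 896 lower, and DE636AA minus CLIP had 2097 higher. In that fit a level difference between lines refers to replicate 1 and not to the mean of the 3 libraries. Its counts, 1 and 1 with siNT and 820 and 1153 with siUPF1, are therefore not checks of the main ones. For the siNT level difference DESeq2 called 10 and 6, no filter on low counts called 72 and 41, and a fit to its own groups called 1 higher. With no filter, 24 and 18 genes were called between DE636AA and K498A. Leaving out each library in turn gave 186 to 372 higher and 323 to 454 lower in the deficit, 1265 to 1638 and 1252 to 1561 in the siUPF1 level difference, 1 to 4 and 0 to 7 in the siNT level difference, 2659 to 2825 and 2672 to 3109 in the DE636AA response, 2121 to 2281 and 2033 to 2597 in the WT response, 4156 to 4916 and 3701 to 4648 in the CLIP response, 723 to 2173 and 1621 to 2989 in DE636AA minus CLIP, and 0 between DE636AA and K498A. The smaller fits hold fewer samples and also differ in the genes tested, and the cause of these changes was not tested. In the simulated counts, which lack such deviations of whole libraries as the data hold, most genes changed 1.5-fold were not called.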
